A study of Mus musculus with 3 samples.

Results

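CpG-dense regions far from gene starts were taken from the regions that an antibody against 5-hydroxymethylcytosine (5hmC) enriched from mouse cerebellum DNA. Peaks of 3 replicates on chromosomes 1 to 19 that overlapped by at least 1 bp were merged into 13285 regions. A merged region was kept where its GC content was at least 55%, its ratio of observed to expected CpG was at least 0.6 and its midpoint lay more than 2 kb from every annotated transcription start. These conditions held for 106 of the 13285 regions, called members below. The rule used the reference sequence, the annotation and the places of peaks, but no base-call and no peak height.

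The DNA came from the cerebellum of female C57Bl6Cr mice aged 8 weeks. The library names and methods trace all 3 replicates to DNA of 1 cerebellum, sonicated separately, so that the spread between replicates is technical and does not cover differences between animals. Replicate 1 was pulled down with a whole serum anti-5hmC antibody, and replicates 2 and 3 with an IgG-purified one, so that antibody preparation and library cannot be told apart for replicate 1. Untreated DNA of the same sample was the input for peak calling, and a pull-down without the 5hmC antibody was not analysed here. Libraries were read on nanopore flow cells, which call 5hmC, 5-methylcytosine (5mC) or unmodified C at each CpG of a read.

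Most CpG dinucleotides of a mammalian genome are methylated and have been lost over evolution, which leaves short CpG-dense stretches, the CpG islands, mainly at gene starts and mostly unmethylated. CpG-dense stretches also occur inside genes, above all in GC-rich coding exons, and in tandem and dispersed repeats, where they are often methylated. TET enzymes oxidise 5mC to 5hmC, which is abundant in neurons, lies mainly in gene bodies and is scarce at unmethylated islands. An antibody pull-down (hMeDIP) enriches the fragments that carry 5hmC, and the base-calls of the same reads give the state of each CpG on the captured fragment.

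The 4 stretches of 200 bases printed here come from an intronic repeat, a repeated block and a pair of genes with single-copy members. Each is read 5′ to 3′ from the forward strand of GRCm39 (mm39) in lower case, with every CpG dinucleotide in capitals. The stretch in Zfhx3, chr8:109665898-109666097, is shown because 1 intronic repeat held more base-calls than any other member, and it holds 32 CpG at a GC content of 90.5%. The stretch at chr6:47661710-47661909 stands for a block of repeated sequence that holds 12 members, and it has 5 CpG at a GC content of 55%. The stretches in Kcnj12, chr11:60960192-60960391, which is coding, and in Cntnap1, chr11:101077256-101077455, which runs from an intron into a coding exon, are shown because, among members with at least 20 calls, they had the highest 5hmC share and, in a tie at 0 with Cdr2l, the lowest, with 10 CpG at a GC content of 59% and 8 CpG at 53.5%. The whole members are longer than the stretches printed here.
Zfhx3 intron: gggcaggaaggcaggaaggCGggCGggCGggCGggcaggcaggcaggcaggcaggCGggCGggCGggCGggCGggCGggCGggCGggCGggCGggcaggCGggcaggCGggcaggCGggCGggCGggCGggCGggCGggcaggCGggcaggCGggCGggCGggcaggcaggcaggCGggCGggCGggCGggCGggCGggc
chromosome 6 block: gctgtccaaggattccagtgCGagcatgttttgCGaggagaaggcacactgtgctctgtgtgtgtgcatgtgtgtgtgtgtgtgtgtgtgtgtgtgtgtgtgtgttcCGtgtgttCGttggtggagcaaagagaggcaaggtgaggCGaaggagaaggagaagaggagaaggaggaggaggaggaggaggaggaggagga
Kcnj12 coding exon: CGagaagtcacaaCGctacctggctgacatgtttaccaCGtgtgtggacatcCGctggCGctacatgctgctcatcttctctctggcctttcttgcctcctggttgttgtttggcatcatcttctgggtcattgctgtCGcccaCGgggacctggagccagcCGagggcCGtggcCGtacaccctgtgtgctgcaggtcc
Cntnap1 intron and coding exon: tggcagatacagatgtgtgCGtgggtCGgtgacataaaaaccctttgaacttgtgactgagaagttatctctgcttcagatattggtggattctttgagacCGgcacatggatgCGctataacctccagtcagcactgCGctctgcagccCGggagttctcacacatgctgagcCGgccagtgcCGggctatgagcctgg
The Zfhx3 stretch consists almost wholly of short units that end in CG or CA, the block stretch holds runs of GT and GGA, and the stretches in Kcnj12 and Cntnap1 hold scattered CpG with no such runs.

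Members were short and mostly exonic. Their length had a median of 366 bp (295 to 2631 bp), their GC content a median of 62.0% (55.1% to 82.7%) and their ratio of observed to expected CpG a median of 0.717 (0.601 to 1.72). They held 4126 CpG, of which 3679 (89.2%) had at least 1 base-call in at least 1 replicate. A member had a median of 26.5 CpG (1 to 168), or 6.38 per 100 bp, against 1.66 per 100 bp in the 9194 other regions over 2 kb from a start, called other far regions below. By midpoint, 61 of the 106 members (57.5%) lay in a coding exon, 5 in an untranslated exon, 20 in an intron and 20 outside genes. Coding exons held 5.29% of the other far regions and introns 76.7%, while coding exons held 52.0% of the 98 CpG-dense regions within 2 kb of a start, called near CpG-dense regions below. The distance to the nearest start had a median of 6227.5 bp, and 49 members lay under 5 kb and 16 at least 20 kb from one.

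In all, 86 members lay in 84 different genes, 83 of them in a protein-coding gene. Among 64 members that overlapped an exon of a canonical coding transcript by midpoint, 38 (59.4%) lay in the last exon, against 52.0% of such other far regions and 36.8% of such near CpG-dense regions. These last exons included those of Lrrc4b (a synaptic adhesion protein), Hic1 (a zinc finger repressor), Otud7a (a deubiquitinase), Sema6c (a transmembrane semaphorin) and Dact3 (a modulator of Wnt signalling). Celsr2, an atypical cadherin of planar cell polarity, held a pair of members. By midpoint, 1 of 2631 bp lay in its first exon and 1 of 619 bp in an intron. The solute carrier gene Slc8a2, which encodes a sodium/calcium exchanger, also held a pair, in coding exons 3 and 4 of 10. The 20 members outside genes comprised 12 in a block on chromosome 6 and 8 scattered ones.

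Members recurred between replicates more often than merged regions in general. Of 106 members, 21 (19.8%) had peaks of at least 2 replicates, against 5.97% of all merged regions, 5.33% of other far regions and 22.4% of near CpG-dense regions. Peaks of all 3 replicates were found in 10 members (9.43%), against 0.399% of all merged regions and 3.06% of near CpG-dense regions. The block on chromosome 6 held 6 of these 10, and the others were in Celsr2, Lrrc4b, Tmem151b and Zfhx3. Outside the block, 13 of 94 members (13.8%) had peaks of at least 2 replicates and 4 (4.26%) of all 3.

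Replicate 1 gave a larger part of its peaks to members than replicates 2 and 3. Of the 490 regions with a peak in replicate 1, 23 were members (4.69%). The numbers were 64 of 8502 (0.753%) for replicate 2 and 50 of 5139 (0.973%) for replicate 3. Without the block the values were 3.47%, 0.623% and 0.798%. Replicate 1 had the fewest peaks and was the only set made with whole serum, and the part of either in this difference was not tested.

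Fold enrichment, the ratio of reads at a peak's summit to the local background, had medians over members' peaks of 5.58, 4.41 and 3.87 in the 3 replicates. In other far regions the medians were 4.72, 3.81 and 3.87. The difference was 0.486 ± 0.440 (SD, n = 3; two-sided exact permutation test over the 3 within-replicate differences, p = 0.25), the smallest p that 3 differences can give, so that no comparison of this kind can pass 0.05. With GC of at least 60% and a CpG ratio of at least 0.75 it turned to -0.0768 ± 0.146 (exact test, p = 1). Benjamini-Hochberg adjustment over 40 comparisons between classes gave 0.40 for each of their p of 0.25 and 0.625 for each of their p of 0.50. Tests under other thresholds, such as the one just given, were not among these 40 and were not adjusted. Without the block and Zfhx3 the member medians were 5.54, 3.83 and 3.87, and only that of replicate 1 stood well above its other far median of 4.72.

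The 5 members with the highest fold enrichment in any replicate were of different kinds. Zfhx3, a gene for a zinc finger homeobox transcription factor, had 18.2 in replicate 3, 7.55 in replicate 2 and 4.01 in replicate 1. In the block, chr6:47739696-47742182 had 11.9, 6.18 and 5.71 in the 3 replicates. A second block member, chr6:47661495-47663347, had 8.80, 7.85 and 8.16. A member outside genes on chromosome 18 had 9.14 in replicate 2 and 11 in replicate 3, but 5 CpG and no base-call. The last exon of Otud7a had a peak only in replicate 2, at 8.82.

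Members carried less 5hmC and more unmodified C than other far regions. Summed over all 106 members, the 5hmC share was 19.2% over 4022 calls of replicate 1, with an exact binomial 95% interval of 18% to 20.5%. Replicate 2 gave 17.6% over 5546 calls (interval 16.6% to 18.7%), and replicate 3 gave 16.1% over 5734 calls (interval 15.2% to 17.1%). These intervals cover counting error only, and CpG on 1 read are not independent. The mean was 17.7% ± 1.56 (SD, n = 3) for 5hmC, 43.8% ± 7.37 for 5mC and 38.6% ± 5.86 for unmodified C. In other far regions 5hmC was 23.4%, 32.5% and 32.4% in replicates 1, 2 and 3, a mean of 29.4% ± 5.24. The 5hmC difference was -11.8 ± 6.64 percentage points, with members lower in 3 of 3 replicates (two-sided exact permutation test, n = 3, p = 0.25, adjusted p = 0.40). Unmodified C differed by 13.7 ± 6.56 points, with members higher in 3 of 3 replicates (same exact test, p = 0.25, adjusted p = 0.40). The 5hmC difference turned when only CpG with at least 5 calls were counted, to 10.3 ± 5.04 points with members higher (exact test, n = 3, p = 0.25). Among members, such CpG lay only in Zfhx3, in some block members, in Otud7a and in a member of Celsr2. With at least 3 calls the difference was -2.31 ± 11.9 points.

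Near CpG-dense regions, by contrast, had 5hmC of 19.4%, 16% and 25%. Members minus near CpG-dense regions gave -2.48 ± 5.62 points, with members higher in 1 replicate and lower in 2 (two-sided exact permutation test, n = 3, p = 0.75, adjusted p = 0.833), a difference within the spread between replicates. Unmodified C was 45.5% ± 8.80 in near CpG-dense regions, and members differed from it by -6.86 ± 8.20 points.

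Summed values hid very unequal contributions. The region in Zfhx3 alone gave 33.9% of the 15302 member calls, and 49.9% in replicate 3, while the 12 members of the block gave 23.3%. After the values had been seen, members were therefore described in 4 groups by the copy number of their sequence, taken as the median number of times that the 31-base words of a member occur on chromosomes 1 to 19. They were 81 single-copy members (median of 1), 12 members of several copies outside the block, the 12 in the block, and the one in Zfhx3, whose words also had a median of 1.

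**Figure D1:**
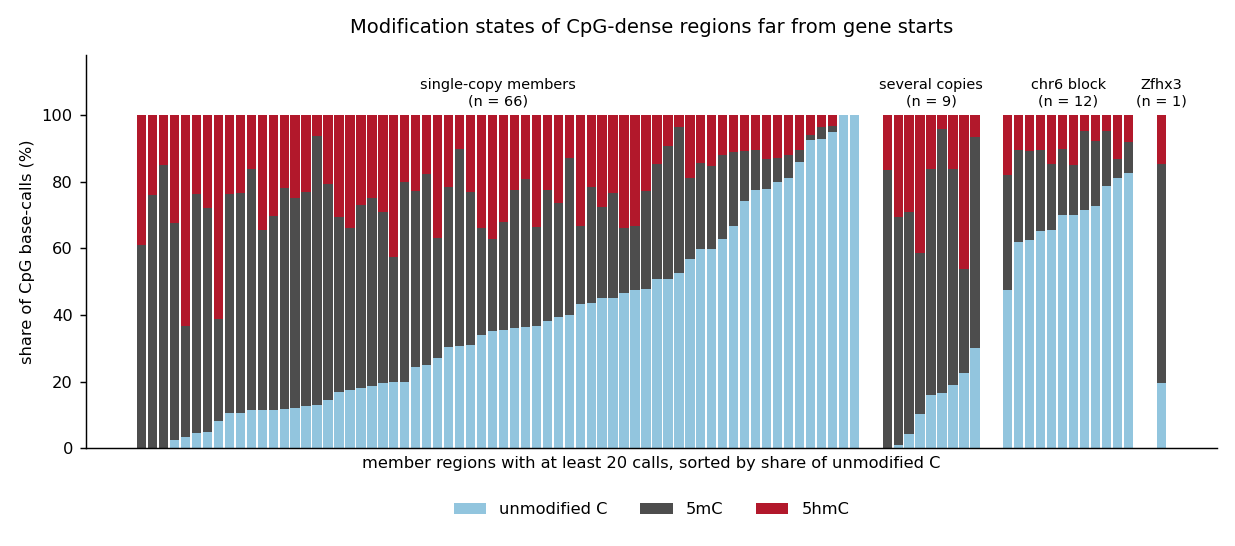
Each bar is 1 of the 88 members with at least 20 base-calls over the 3 replicates, split into the percent of calls that were unmodified C (blue), 5mC (grey) and 5hmC (red), within 4 groups and sorted by unmodified C. Single-copy members span the whole range from 0% to 100% unmodified C, members of several copies stay under 50%, and 11 of 12 block members lie above it.

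Without the block and Zfhx3, 93 members had 5hmC of 24.4%, 21.7% and 21.7%, a mean of 22.6% ± 1.56 (SD, n = 3), with 5mC at 40.3% ± 2.73 and unmodified C at 37.0% ± 1.20. They differed from other far regions, likewise without the block and without regions holding a CpG of at least 20 calls, by -11.2 ± 2.77 points of 5hmC, with members lower in 3 of 3 replicates (two-sided exact permutation test, n = 3, p = 0.25, adjusted p = 0.40). Unmodified C differed by 11.6 ± 0.727 points, with members higher in 3 of 3 replicates, and 5mC by -0.364 ± 3.48 points. As means over single regions, the differences were -9.78 ± 3.57 points of 5hmC, 6.61 ± 2.31 of unmodified C and 3.17 ± 2.13 of 5mC. Against near CpG-dense regions treated alike, members had 2.51 ± 5.09 points more 5hmC, higher in 2 of 3 replicates, and a difference in unmodified C of -8.39 ± 8.93 points, lower in 3 of 3 (exact test p = 0.25).

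**Figure D2:**
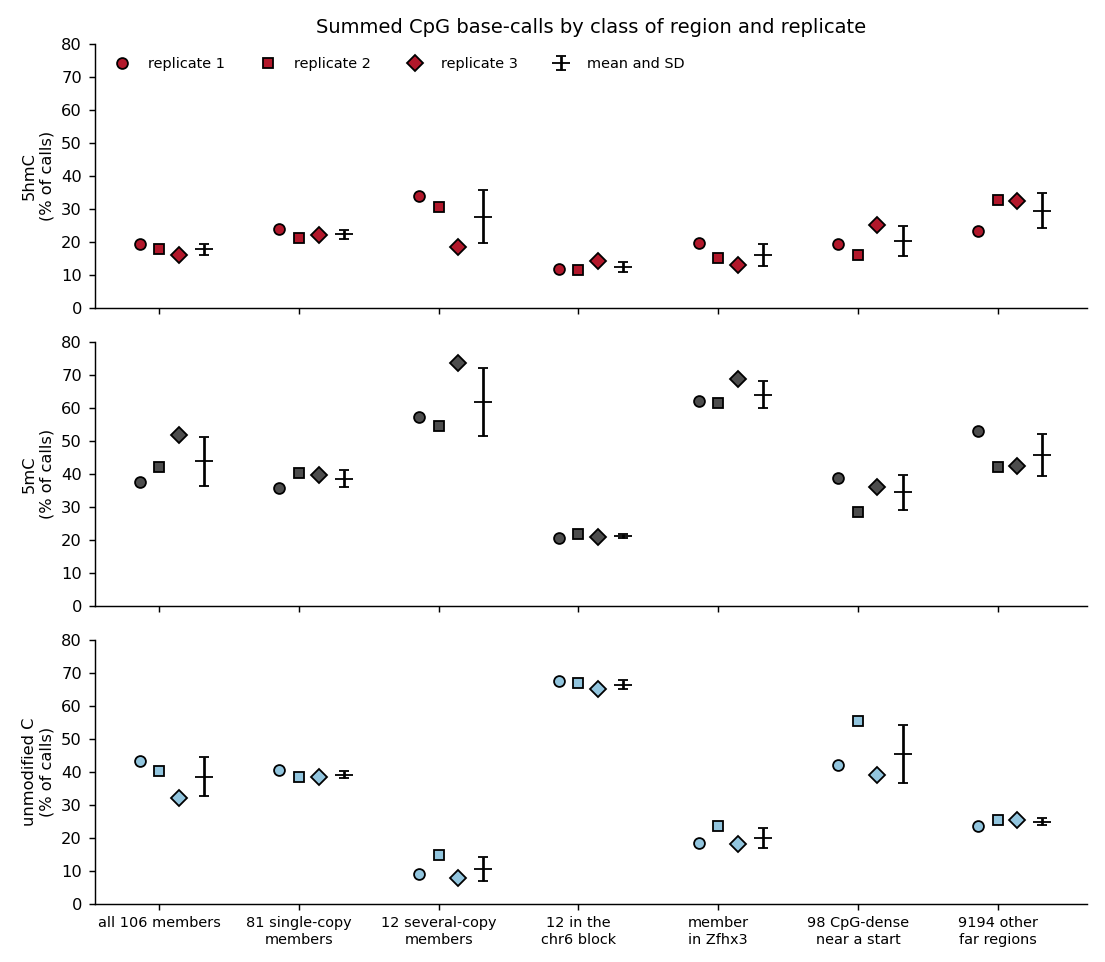
Percent of summed CpG base-calls that were 5hmC (top), 5mC (middle) and unmodified C (bottom), with 1 symbol per replicate and a bar for the mean and SD of 3 replicates, for the members, their 4 groups, near CpG-dense regions and other far regions. The 12 block members stand apart at 66.5% unmodified C, and the 12 members of several copies at 10.5%.

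The comparison was repeated within 1 kind of gene feature, taken by the midpoint of a region. Members counted in introns can thus hold coding bases, up to 55.8% of the one in Cacna2d2. Members in coding exons had 22.9% 5hmC, against 28.6% in 485 other far regions in coding exons (without the block and deeply covered CpG). The difference was -5.70 ± 3.38 points, lower in 3 of 3 replicates (two-sided exact permutation test, n = 3, p = 0.25, adjusted p = 0.40). It was -1.80, -7.84 and -7.45 points in replicates 1, 2 and 3. As a mean over single regions it was -4.85 ± 4.42 points, with only -0.310 in replicate 1. Members in introns outside the block and Zfhx3 had 23.2%, against 35.4% in 7048 other far introns, a difference of -12.2 ± 1.19 points (lower in 3 of 3, same p). Unmodified C was higher in members than in other far regions by 11 ± 1.38 points in coding exons (3 of 3 replicates), and by 5.05 ± 9.05 points in introns (2 of 3). The intron difference in unmodified C was smaller than its spread, and as a mean over single regions it was 2.30 ± 6.29 points, higher in 1 of 3. The 5mC difference was -5.31 ± 3.03 points in coding exons (lower in 3 of 3) and 7.12 ± 8.77 points in introns (higher in 3 of 3). Of the 19 intron members, 8 were of several copies and 11 single-copy, while all 61 members in coding exons were single-copy. As whole groups, the 12 members of several copies outside the block had 27.6% 5hmC, 61.8% 5mC and 10.5% unmodified C. The 81 single-copy members had 22.2%, 38.6% and 39.2%. The intron values thus pool unlike kinds, and differences for single-copy introns alone were not taken.

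Single members differed more from each other than the groups did. Of the 88 members with at least 20 calls, 30 (34.1%) had unmodified C in at least 50% of calls. With that many calls, the share was 15.2% of all merged regions, 11.7% of other far regions and 45.3% of near CpG-dense regions. At least 50% was 5mC in 32 (36.4%, background 30.6%) and 5hmC in 2 (2.27%, background 11.2%), and 14 members (15.9%) had under 10% 5hmC, against 5.63% of all merged regions and 20.9% of near CpG-dense regions. The block held 11 of the 30 mostly unmodified members, and outside it 19 of 76 members (25%) were mostly unmodified. Outside the block and Zfhx3, the 5hmC share over 75 members had a median of 22.5%. Its quartiles were 13.1% and 30.4%, and its range was 0% to 63.3%. In 1569 other far regions the median was 33.3%, with quartiles of 23.8% and 42.4%. Unmodified C reached 90% in 5 of the 75 members (6.67%) and in 4 of the 1569 other far regions (0.255%). These 5 members had at most 2 calls per CpG in a replicate, so their shares rest on few reads. Equal numbers of calls are not equal numbers of reads. Members outside the block and Zfhx3 held a median of 26 CpG, and other far regions 6, so that members reach 20 calls with fewer reads.

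The 81 single-copy members had 6061 calls, with 5hmC of 23.7%, 21.0% and 22% (mean 22.2% ± 1.39, SD, n = 3), 5mC at 38.6% ± 2.49 and unmodified C at 39.2% ± 1.17. They comprised all 61 members in coding exons, 5 in untranslated exons, 11 in introns and 4 outside genes. Of 66 with at least 20 calls, 19 were mostly unmodified, 24 mostly 5mC, 2 mostly 5hmC, and 21 had no state at 50%. The 19 mostly unmodified members had a median of 7.89 CpG per 100 bp, a GC content of 64.2% and a distance of 4716 bp to a start, and 15 of them lay in coding exons. The 24 mostly methylated members had medians of 6.20 CpG per 100 bp, 60.6% GC and 4550.25 bp, and 19 lay in coding exons. Both kinds thus lay mostly in coding exons and at like distances from a start. Srrm2, a splicing factor gene chosen after its values were seen, was the most methylated, with 85.0% 5mC and 15% 5hmC over 40 calls of all 3 replicates. It had no unmodified call, which would allow a share of up to 7.5% if its calls were independent.

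By midpoint, the 6 members with the highest 5hmC lay in 3 coding exons and 3 introns. Kcnj12, which encodes an inwardly rectifying potassium channel, had the highest share, with 5hmC in 19 of 30 calls (63.3%, exact binomial 95% interval 43.9% to 80.1%) in its coding exon 2 of 2. Its replicates gave 5 of 12, 10 of 12 and 4 of 6 calls, with at most 2 calls per CpG in each. This interval and the next take CpG on 1 read as independent, so they are too narrow. A coding exon of Dip2b followed with 30 of 49 calls (61.2%, 46.2% to 74.8%), and its replicates gave 69.2% of 13, 63.0% of 27 and 44.4% of 9 calls. All replicates of both exons lay above the upper quartile of the members, which is a description, since they were chosen for the highest shares.

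Srgap2, a regulator of neuronal migration and dendritic spines, had 5hmC in 43 of 93 calls (46.2%) of an intronic member, at 34.6%, 53.7% and 38.5% in replicates 1, 2 and 3. Map7d1, a gene of the microtubule-binding MAP7 family, had 17 of 40 calls (42.5%), all in replicate 1. An intron of the predicted gene Gm15627 had 12 of 29 calls (41.4%), all in replicate 2. Cacna2d2, an auxiliary subunit of voltage-gated calcium channels, had 9 of 23 calls (39.1%) and otherwise only 5mC, at 37.5% of 8 calls in replicate 1 and 40.0% of 15 in replicate 2. The members in Srgap2 and Gm15627 were of several copies, and the other 4 were single-copy.

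The lowest 5hmC shares came with unmodified CpG in most cases. Cntnap1, which encodes an axonal protein of the paranodal junction, had no 5hmC and no 5mC in 31 calls of its member, whose midpoint lay in coding exon 19 of 24, which allows a share of up to 9.68% of either. Replicates 2 and 3 gave 16 and 15 of these calls, and no CpG had more than 2. Cdr2l, a gene named for its relation to an antigen of cerebellar degeneration, had 21 of 21 calls unmodified in its last exon. This allows up to 14.3%. Every CpG had 1 call in replicate 2 alone, so that all its calls may come from 1 read. CpG on 1 read are not independent, so both limits count linked calls as separate and are too low.

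Lmtk3, a lemur tail kinase gene, had 5hmC in 2 of 60 calls (3.33%, exact interval 0.406% to 11.5%). Unmodified C made up 95% of them, in replicate 3 alone. No CpG had more than 2 calls there, and the interval takes linked calls as independent. The last exon of Hic1 had 3 of 84 calls (3.57%) and unmodified C in 92.9%, in replicate 2 alone. The last exon of Zfp46, a zinc finger gene, had 2 of 55 calls (3.64%), but with 43.6% 5mC and 52.7% unmodified C. The member at chr9:111634528-111634829, outside genes, had 1 of 24 calls (4.17%) and 79.2% 5mC. In 4 of these 6 members, the few reads of a peak with little 5hmC thus gave at least 90% unmodified C.

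Other mostly unmodified members, chosen after their values had been seen, were measured in more than 1 replicate. In Gprin1, a gene of neurite outgrowth, 90.5% of 42 calls in replicate 1 and 94.9% of 39 in replicate 2 were unmodified C. Syt7, a calcium sensor of exocytosis, had 88.5% of 61, 63.9% of 36 and 81.4% of 43 calls. Ajm1, a gene of apical junctions, had 81.4% of 59, 76.1% of 67 and 100% of 17. Tmem121 had 82.9% of 76, 77.8% of 18 and 68.8% of 48. Each was above the mean of other far regions, 24.9%, in every replicate that gave calls, which is a description, since they were chosen as mostly unmodified.

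Among single-copy members with peaks of at least 2 replicates and at least 20 calls, 2 were mostly unmodified, 4 mostly 5mC, and 5 had no state at 50%. The first exon of Celsr2 had 5mC in 76.9%, 63.5% and 55.7% of calls in replicates 1, 2 and 3, with 5hmC at 14.1%, 18.3% and 29.5%, over 270 calls in all. The last exon of Lrrc4b had 5hmC at 26.8%, 21.3% and 17% over 325 calls, with 36.0% unmodified C. Apba1, which encodes a presynaptic adaptor protein, had 168 CpG in its member, more than any other, and 5hmC at 22.8%, 23.5% and 21.2% over 402 calls. The order of the 3 replicates differed between Celsr2 and Lrrc4b, while Apba1 varied by only a few points.

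Slc8a2 had 5hmC at 49.4%, 32.8% and 25% over 222 calls in its member in exon 3. Its member in exon 4 had 34.6% over 52 calls. Foxo3, a forkhead transcription factor, had 34.1% over 182 calls. Tmem151b, a gene for a membrane protein, had unmodified C in 74.2% of 128 calls of a member with its midpoint in an intron. The values were 90.5% of 42 calls in replicate 1 and 66.3% of 86 in replicate 2. Replicate 3 had a peak over Tmem151b but no base-call there.

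The most CpG-dense members did not share 1 state. Dact3 held 49 CpG in 302 bp (16.2 per 100 bp) and had 10.3% 5hmC, 59.0% 5mC and 30.8% unmodified C over 39 calls. Cacna1a, the pore-forming subunit of the P/Q-type calcium channel that is abundant in Purkinje cells, held 45 CpG in exon 19 of 47, with 5hmC at 40.4%, 37.5% and 29.3% and unmodified C at 38.5%, 43.8% and 52.4% over 150 calls. Lmtk3, with 41 CpG in 302 bp, was almost free of modification, as given above. Sema6c had 72.5% 5mC over 149 calls, at 73.5%, 69.7% and 75.5% in the 3 replicates. Zfp865, a zinc finger gene, had 64.1% 5mC and 23.1% 5hmC over 39 calls in replicate 3. At similar density these exons thus ranged from 1.67% 5mC in Lmtk3 to 72.5% in Sema6c.

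The 12 members of several copies outside the block, of which those in Gm30307 and on chromosome 18 had no calls, held mostly 5mC when summed. They had 498 calls, with 5hmC at 33.9%, 30.6% and 18.4% (mean 27.6% ± 8.15, SD, n = 3), 5mC at 61.8% ± 10.4 and unmodified C at 8.87%, 14.9% and 7.89%. Of 9 with at least 20 calls, 7 had at least 50% 5mC and none had 50% unmodified C. Introns held 8 of them and 4 lay outside genes, with none in an exon. Members in Srgap2, Tmem178b, Itpr1 and Zfpm2 and the one at chr1:16004628-16004931 shared 31-base words with one another, and their words occurred a median of 673, 107, 670, 464 and 647.5 times on chromosomes 1 to 19. Itpr1 encodes the inositol trisphosphate receptor of Purkinje cells, and its 30 calls were 83.3% 5mC and 16.7% 5hmC, all in replicate 3. The member at chr9:111634528-111634829 shared 78 words with that in Gm15627, and its words occurred a median of 2650.5 times. Which copy a read came from was not tested.

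On chromosome 6, 12 members lay between 47644647 and 47750158, in a block of 25 merged regions from 47632809 to 47797285. No annotated gene overlaps the stretch that holds the members, which is broken by an assembly gap of 50000 bp, and the start of Gm66711, a long noncoding RNA gene inside the block, lay 4600 bp from the last member. The words of 11 of the 12 members had a median of 14 to 16 copies, and those of chr6:47743934-47744237 a median of 2. Which copy a read came from was not tested here either, so that block members are not separate observations.

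The block members were mostly unmodified in each replicate. Unmodified C was 67.5% of 1306 calls, 66.9% of 1287 and 65.1% of 970 (mean 66.5% ± 1.29, SD, n = 3), with 5hmC at 11.8%, 11.3% and 14.1% and 5mC at 21.1% ± 0.586. The spread between replicates was small beside the distance to the single-copy members. The 13 other merged regions of the block had 63.0% ± 4.49 unmodified C and 12.4% ± 2.51 5hmC, against 50.0% ± 1.77 unmodified C as a mean over single regions.

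Among the block members, chr6:47661495-47663347 had unmodified C at 66.0%, 67.5% and 61.7% over 637 calls. The member at chr6:47721443-47722412 had 76.1%, 60.3% and 73.1% over 622 calls. That at chr6:47729275-47730535 had 76.1%, 71.7% and 60.1% over 551 calls. In chr6:47739696-47742182 the values were 58.6%, 79.7% and 52.5% over 511 calls, and in chr6:47734106-47736553 they were 55.9%, 70.7% and 63.6% over 394. All 5 were above 50% in every replicate. However, 90.1% to 100% of their words also occur in other merged regions of the block, so that reads may be placed on another copy. The lowest block member, chr6:47720568-47721172, had 47.5% over 278 calls, and the highest, chr6:47653317-47653764, had 82.4% over 74.

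**Figure D3:**
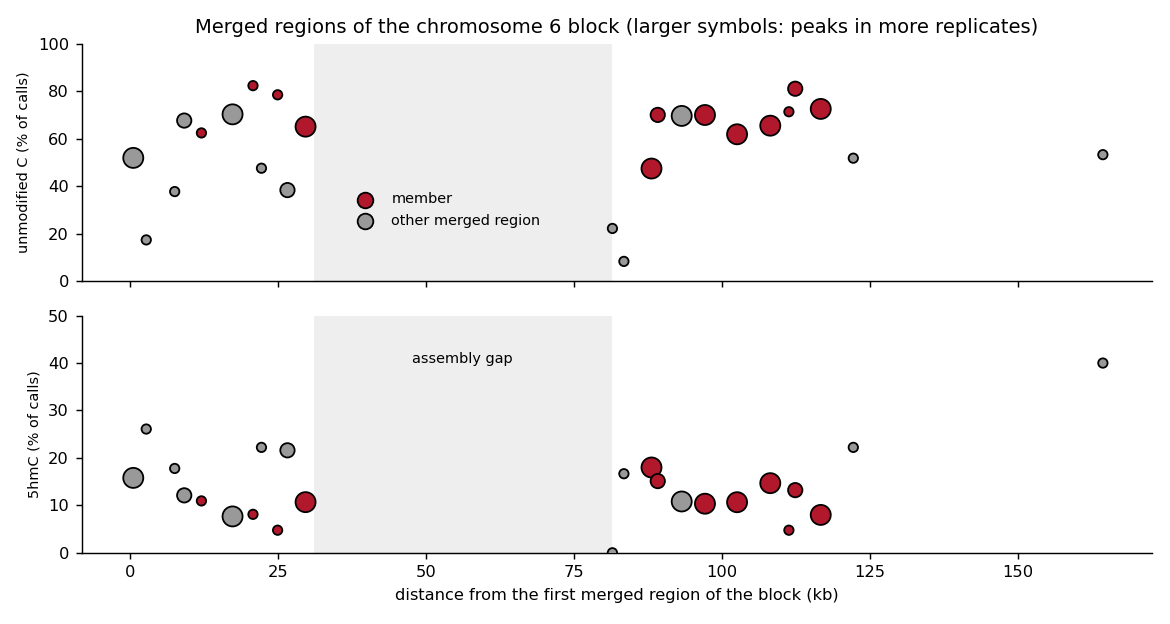
Unmodified C (top) and 5hmC (bottom) as percent of calls over all replicates, against distance in kb from the first merged region of the chromosome 6 block, for regions with at least 10 calls; red symbols are members, grey symbols the other merged regions, and larger symbols have peaks in more replicates. Members lie between 47.5% and 82.4% unmodified C on both sides of the shaded assembly gap.

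The member in Zfhx3, chr8:109665751-109666259, differed from all others in depth. It spans 509 bp of an intron, 2513 bp from the nearest start, with 58 CpG and a GC content of 82.7%. On the forward strand it holds 101 units of GGCA or GGCG (47 and 54) that do not overlap, which make up 79.4% of its bases, and the reverse strand was not searched. It had 5180 calls, with a median per CpG of 18, 28 and 58.5 in replicates 1, 2 and 3. Its 5mC was 62.0%, 61.4% and 68.8% (mean 64.0% ± 4.11, SD, n = 3), its 5hmC 19.6%, 15% and 13% and its unmodified C 20.1% ± 3.04. Failed calls, those below the confidence limit of the counting tool, were 51.0%, 49.5% and 39.9% of valid plus failed calls there, against 3.38%, 5.24% and 3.26% in the 93 members outside the block and Zfhx3. Their part in the shares was not tested. The study's methods describe a mask on repeats at the counting step and removal of blacklisted peaks, and neither step was checked here.

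The fall of 5hmC with CpG density did not start at the threshold of the rule. Over far regions with at least 10 calls, without the block and without regions holding a deeply covered CpG, the mean 5hmC share of a region was 38.0% at under 1 CpG per 100 bp, 35.1% at 1 to 2, 34.4% at 2 to 3 and 30.4% at 3 to 4. It was 25% ± 1.32 (SD, n = 3) at 4 to 6, 24.0% ± 2.62 at 6 to 8 and 22.7% ± 1.96 at 8 or more. The bin of 6 to 8 had 19, 22 and 20 measured regions in replicates 1, 2 and 3, and that of 8 or more 16, 20 and 15. The lowest bin held few measured regions, 1, 9 and 3 in the replicates. Unmodified C was 26%, 26%, 24.4% and 26.3% from 1 to 2 up to 4 to 6 CpG per 100 bp, while 5mC went from 38.8% to 48.7%. At 6 to 8 and at 8 or more, unmodified C was 31% ± 3.93 and 40.5% ± 7.98, and 5mC was 45.1% and 36.8%. Regions within 2 kb of a start went from 36.7% 5hmC at 1 to 2 CpG per 100 bp to 17.7% ± 3.33 at 8 or more. The density bins share libraries and base composition, and they are given as a description.

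**Figure D4:**
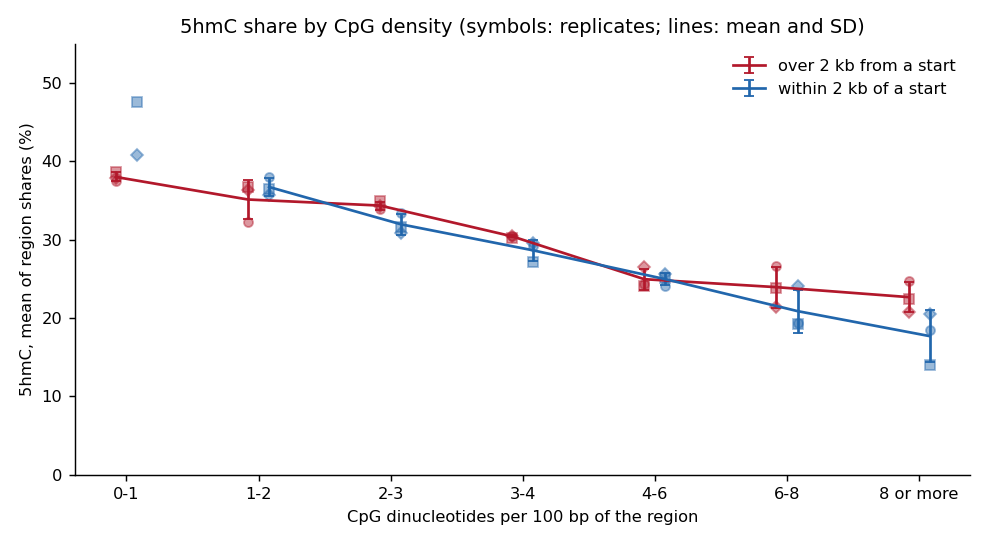
Mean 5hmC share of single regions (percent of calls, regions with at least 10 calls in the replicate) against CpG per 100 bp, for merged regions over 2 kb from a start (red) and within 2 kb (blue); symbols are replicates and lines the mean with SD of 3 replicates. Far regions fall from 38.0% to 22.7%, and the lowest bin near a start has no value in replicate 1 and so no mean.

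In far regions under 0.6 observed to expected CpG, 5hmC also fell with GC content, with CpG per 100 bp not held fixed. They had 36.6% ± 0.572 5hmC at 45% to 50% GC, 30.5% ± 0.75 at 55% to 60%, 26.1% ± 1.21 at 60% to 65% and 19.1% ± 2.62 at 65% or more. The value at 65% or more rests on only 5, 5 and 7 measured regions in replicates 1, 2 and 3. Members had 23.0% at 55% to 60% GC, 23.9% at 60% to 65% and 22.9% at 65% or more, the last above and the others below the less CpG-dense regions of like GC. Members therefore varied little over this range, with SDs of 2.2 to 3.3 points. Distance to a start showed no steady trend among CpG-dense regions, with 20.2% ± 2.33 within 500 bp, 24.1% ± 0.592 at 2000 to 5000 bp and 23.8% ± 5.64 at 10000 bp or more.

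Members also had less 5hmC when CpG were compared within the same flanking bases. Over the 16 combinations of preceding and following base, the 93 members outside the block and Zfhx3 had a mean 5hmC share of 17.3% to 29.2%, and other far regions 29.6% to 41.7%. Members had the lower mean in 16 of 16 combinations, and the lower value in all 3 replicates in 14. GCGC, the most frequent combination in these members with 886 calls, had 25.5% ± 0.687 in members and 36.0% ± 1.88 in other far regions.

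Replicates ranked members by unmodified C better than by 5hmC. Across members with at least 10 calls in both, Spearman's rho of the unmodified C share was 0.743 for replicates 1 and 2 (45 members), 0.803 for 1 and 3 (37 members) and 0.611 for 2 and 3 (43 members). For 5hmC rho was 0.436, 0.268 and 0.318. Members are not independent replicates and share libraries, and the block members share sequence, so that these are descriptions. Between replicates 2 and 3 the 5hmC share of a member differed by a median of 8.96 points and by up to 44.1 points. A single member's 5hmC share from 1 replicate therefore carries a wide error. The median called CpG had 1 call per replicate, and 15 members had 1 to 19 calls over all 3 replicates.

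**Figure D5:**
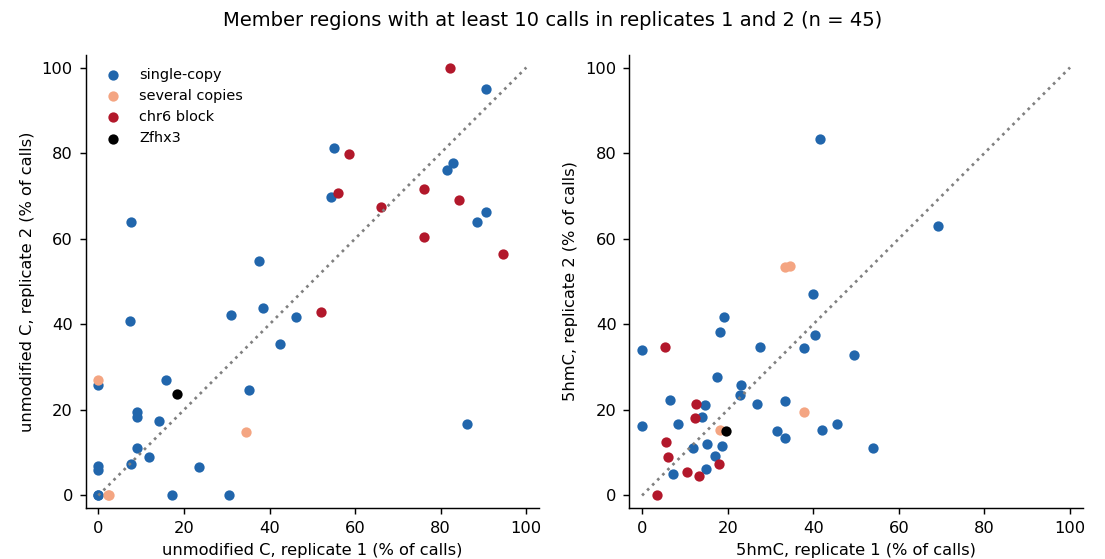
Unmodified C (left) and 5hmC (right) in replicate 2 against replicate 1, as percent of calls, for the 45 members with at least 10 calls in both; the dotted line marks equal values and colours give the 4 groups of members. Unmodified C lies about the line over its whole range with a few members far off it (rho 0.743), and 5hmC scatters more widely (rho 0.436).

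At the GC threshold, Tmem151b was just inside with 55.1%, and Cplx2, a presynaptic complexin gene with 11.1% 5hmC over 27 calls, just outside with 54.97%. At the CpG threshold, the member where Trim28 and Zbtb45 overlap (29.4% 5hmC, 17 calls) and that in the first exon of Celsr2 (20.7%, 270 calls) both had 0.601, and a region in Chrnb2, a nicotinic receptor subunit gene, was outside with 0.599 (31.2%, 112 calls). At the distance threshold, Ajm1 lay 2047.5 bp and Tmem121 2055 bp from a start, while regions in Dlgap3 and at chr6:122234068-122234555 were outside at 1948.5 bp and 1924.5 bp. Far from starts, 1184 of 9300 merged regions met the GC condition and 403 the CpG condition.

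Gene lists held few members. The list of zinc finger genes, which does not take in every gene of that kind, held 7 of 106 members (6.60%), in Zfhx3, Zfp46, Zfp467, Zfp865, Zfp653, Zbtb45 and Zfp316, and 1.63% of all merged regions. Potassium, calcium and sodium channel genes held 5 (4.72%), in Cacna1a, Cacna2d2, Cacna1i, Kcnj12 and Itpr1, and 2.27% of all merged regions. In the zinc finger genes 5hmC went from 0 of 6 calls in Zfp316 to 33.3% of 21 in Zfp653, and in the channel genes from 14.3% of 7 in Cacna1i to 63.3% in Kcnj12. Cadherin genes held the pair of members in Celsr2 (1.89%, against 0.617% of all merged regions), and developmental regulators those in Foxo3 and Foxn2 (1.89%, against 1.04%), the latter with 27.0% 5hmC over 89 calls. Guidance genes held Sema6c (0.943%, against 1.14%), and Purkinje cell markers Itpr1 (0.943%, against 0.218%). No member lay in 61 imprinted genes (0.166% of all merged regions), in glutamate, GABA and glycine receptor genes (1.21%), or in markers of granule cells, interneurons, astroglia, oligodendrocytes, microglia, endothelium and choroid plexus (0.00753% to 0.309%). At such shares of all merged regions, a count of 0 or 1 among 106 members is near the background.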

How the data were processed

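Per the methods, reads were base-called with Dorado, aligned to mm39 (GRCm39) with minimap2 and sorted with SAMtools. The authors called peaks of each replicate alone against the input with MACS2, whose deposited files give fold enrichment as a ratio, −log10 p-values and q-values, and a display score. The authors counted base-calls per CpG with modkit, and the deposited files hold counts of 5hmC, 5mC, unmodified and failed calls and the percent modified. Merged regions had 68673, 101734 and 73834 calls in replicates 1, 2 and 3.

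From these files, peaks were merged, calls were summed per region or class, and shares were given with exact binomial (Clopper-Pearson) 95% intervals. A share of 0 was given the limit of 3 counts over the total. Both take CpG on 1 read as independent, so they are too narrow for members covered by few reads. Sequence came from GRCm39, and starts and gene features, by region midpoint, from the reference annotation with 304862 starts. Differences between classes were taken within each replicate and tested by a two-sided exact permutation over 8 sign changes. Of these tests, 40 comparisons were adjusted by Benjamini-Hochberg, and tests under other thresholds were not. Scripts were tested on simulated data and run in Python 3.11.15 with scipy 1.17.1, pandas 2.3.3, numpy 2.4.6 and matplotlib 3.10.9.

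Members named were those with peaks in all 3 replicates, the 10 with the most calls among those with peaks of at least 2, the 6 highest and 6 lowest in 5hmC among those with at least 20 calls, the 5 with the highest fold enrichment, the 5 with the most CpG per 100 bp, members of gene lists and neighbours of each threshold. Others were chosen after their values were seen. The members and lists were chosen with earlier results of these data known. The result of 1 gene list is not reported here. Alternatives were other peak, distance, GC and call thresholds, other weighting, and leaving out each replicate. Leaving out the block, and a minimum of 10 CpG, were added after seeing the data.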

Additional observations from a re-analysis of the deposited data

How the results depend on the processing

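The share of members with peaks of at least 2 replicates stayed between 13.3% and 24.6% under 9 other settings. The share over all merged regions was not taken under these settings. Without 1 replicate, a member needed peaks of both replicates that were left, which is a stricter condition. The number of members was 56 with fold enrichment of at least 4, 57 at over 5 kb, 34 with GC of at least 60% and a CpG ratio of at least 0.75, 133 with starts of protein-coding genes only, 110 with a stricter overlap, and 67 to 98 without 1 replicate. Summed 5hmC was 16.1% at CpG with at least 5 calls and 21.4% as a mean over single regions, and 16.1% to 18.8% without 1 replicate. In alternatives chosen after seeing the data it was 19.6% without the block, 23.2% as a mean over regions without the block, and 22.6% without the block and deeply covered CpG.

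Summed 5mC was 31.3% at over 5 kb, 52.4% under the stricter GC and CpG thresholds, 58.8% with at least 5 calls, 33.5% without regions holding a CpG of at least 20 calls, and 40.3% to 48.5% without 1 replicate. Unmodified C was, in the same order, 50.9%, 30.6%, 25.2%, 47.5% and 34.7% to 40.9%, and 29.8% without the block.

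Members minus other far regions stayed negative in 5hmC in every alternative run except at least 5 calls per CpG, with 10.3 points (exact test p = 0.25). That setting rests on Zfhx3, some block members, Otud7a and a member of Celsr2. Without 1 replicate the difference went from -16.3 to -8.18 points. Members minus near CpG-dense regions turned to 0.102 points under the stricter GC and CpG thresholds, 0.721 as a mean over regions, 2.62 as that mean without the block, and 2.51 without the block and deeply covered CpG, and went from -7.93 to 0.826 without 1 replicate (0.826 without replicate 3). This comparison gave no value with at least 5 calls. The difference in median fold enrichment turned to -0.0768 under the stricter GC and CpG thresholds and was 0.271 to 0.451 without 1 replicate. The cause was not tested. Depth limits single members, most CpG of which had 1 call, and 3 libraries of 1 animal cannot give a p under 0.25.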

Other observations

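The number of members differed between chromosomes, and whether this went beyond an even spread was not tested. Chromosomes 6 and 7 held 15 each, which is 2.34% and 2.06% of their merged regions, against 106 of 13285 in all. Chromosome 14 held none of 431. On chromosome 6, 12 of the 15 lay in the block.

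Members without any base-call were in Gm30307, in Slc25a29, a mitochondrial carrier gene, and outside genes on chromosome 18. Members with under 10 CpG numbered 3, and that at chr4:152659292-152659593 had 7 CpG and 5mC in 91.7% of 12 calls. An intron of Prkce, which encodes a protein kinase C isoform, had 80.6% 5mC over 31 calls, and a coding exon of Ywhag, a 14-3-3 protein gene, had 62.9% over 116.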
